A study of Homo sapiens with 6 samples.

Results

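The genes described here are the zinc finger family regulators among the genes that differed between dormant and proliferating breast cancer cells in the brain. They were chosen by name alone, as every gene of the deposited table whose symbol begins with ZNF and a number, ZBTB, ZSCAN, ZKSCAN, ZFP, ZFHX, ZEB, ZC3H or KLF, which gave 27 of 1161 listed genes. MDA-MB-231 is a human triple negative breast cancer line, here carrying green fluorescent protein (GFP) and loaded before injection with CellVue Claret (CV), a membrane dye that each division dilutes. Female C.B-17 SCID mice aged 6-8 weeks received the cells through the internal carotid artery, and GFP+ cells were sorted from the brains at day 28 into a dye-retaining, dormant population (GFP+CV+) and a dye-free, proliferating one (GFP+CV-). Each population gave 3 mRNA libraries, each from pooled brains of 10 mice (replicates 1 and 2) or 9 mice (replicate 3), and both populations of one number came from one pool. Only this line was studied, and the host lacks functional B and T cells. Both groups carried GFP and came from cells loaded with the dye, and the dye left at day 28 set them apart.

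Zinc finger proteins fold a short loop of protein around a zinc ion, and strings of such fingers read DNA or RNA sequence. Many ZNF proteins also carry a KRAB domain, which recruits the corepressor TRIM28 and silencing histone methylation, often at transposable elements. ZBTB proteins carry a BTB domain that pairs them and binds corepressors, ZSCAN proteins a SCAN domain that pairs them, and KLF proteins bind CACCC and GC-rich boxes in promoters. Not every name that begins with ZFP marks a DNA-binding protein: ZFP36L2 has fingers of the Cys-Cys-Cys-His kind that bind AU-rich stretches of mRNA and hasten its decay.

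Every gene of the table had already been called different by the authors on these same libraries, so each gene's separation was fixed when it was listed and no call on a member is independent evidence. The listed genes together had between 7978664 and 17928777 estimated counts in a library. These sums are not the depth of the libraries, which is unknown. Among the listed genes, 8 to 25 were at 0 in each proliferating library and 117 to 132 in each dormant one. Values below are the authors' normalized read counts, which are counts divided by one size factor per library. Differences are log2 fold changes of dormant over proliferating cells from edgeR's quasi-likelihood test on the counts, each with its standard error (SE), and p-values are adjusted over the 1161 listed genes by the Benjamini-Hochberg method. In sorted pools, fewer cells of a kind and less RNA per cell cannot be told apart.

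In dormant cells, 19 of the 27 were higher and 8 lower, and all 27 passed an adjusted p of 0.05 by edgeR. Over all listed genes 99.7% passed, 49.6% higher and 50% lower, so that passing says nothing particular about these genes. For each of the 27 the groups were apart, with every dormant library above every proliferating one for 19 and below for 8. Such a gap was seen in 99.2% of listed genes, upward in 49.0% and downward in 50.2%. With the replicate number as a block, 25 of the 27 passed, against 94.5% of listed genes. When p-values were instead adjusted over the 20046 protein-coding genes of the annotation, with unlisted genes taken to have larger p-values, none of the 27 passed in edgeR and their adjusted p-values ran from 0.0554 to 0.470, while 0.258% of listed genes passed. That result holds for edgeR p-values only. DESeq2 adjusted p-values of the 27 over the listed genes were 0.00148 or less, and they were not adjusted over all protein-coding genes. The count of higher genes also varied with the scaling, here recomputed only on genes listed as different. Median-of-ratios scaling assumes that most genes do not change, so a fit on these genes cannot show which count is right. With median-of-ratios scaling over the listed genes, 9 of the 27 passed as higher and 8 as lower in edgeR, and 37.2% of the listed genes that passed were higher, against 49.8% with the authors' size factors. The 10 higher genes that did not pass under that scaling were *ZBTB20*, *ZBTB33*, *ZSCAN18*, *ZNF286A*, *ZNF284*, *ZNF836*, *ZNF704*, *ZNF821*, *ZNF713* and *ZNF514*, with log2 fold changes of 0.06 to 1.14 and edgeR adjusted p-values of 0.0608 to 0.790. All 27 had an unadjusted p under 0.05, as did 1157 of the 1161 listed genes. The median log2 fold change was 1.42 over the 27 genes and -0.33 over all listed genes. This difference moved with the level of the genes. Among the 727 listed genes with a mean normalized count within the range of the 27, 486 were higher in dormant cells, or 66.9%, against 70.4% of the 27, and their median log2 fold change was 1.27. The falls and rises of the 27 were unequal in size: the 19 higher genes had a median of 1.67 and none rose by more than 4 on the log2 scale, whereas the 8 lower genes had a median of -4.48 and 5 of them fell by more than 4. Over all listed genes the higher ones had a median of 1.70 and the lower ones a median of -0.96. Rises of more than 4 were seen in 61 of the 576 listed higher genes, and falls of more than 4 in 32.6% of the listed lower genes. These sizes were not compared at matched level. Among the 727 genes at the level of the 27, 237 passed as lower in edgeR, against 581 of all listed genes.

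**Figure D1:**
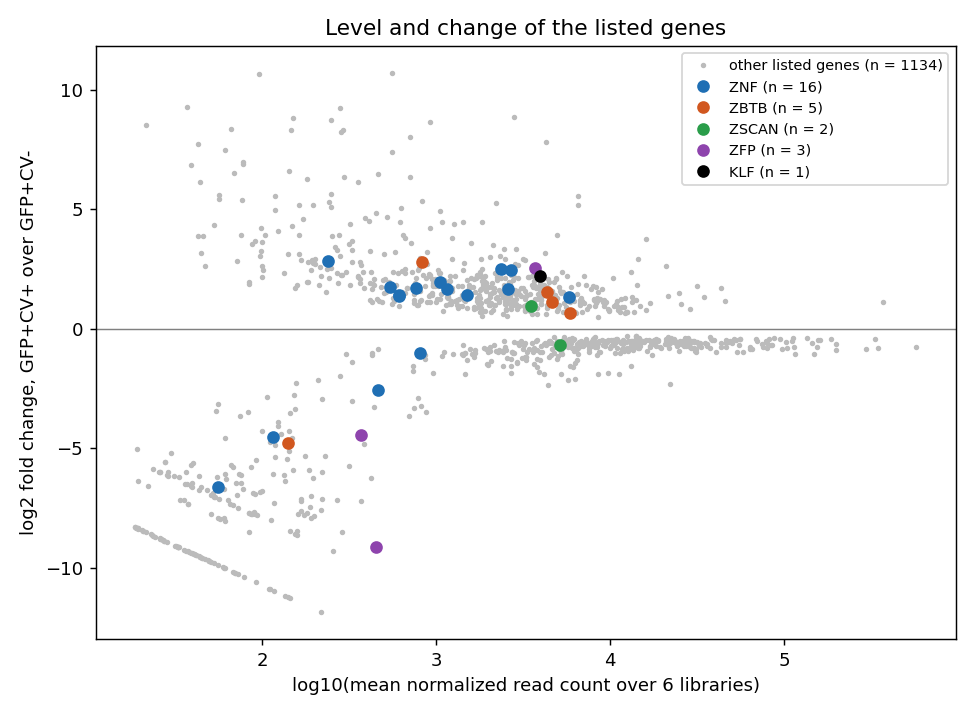
Log2 fold change of dormant (GFP+CV+) over proliferating (GFP+CV-) cells against log10 of the mean normalized read count over the 6 libraries, 1 point per listed gene. The 19 higher zinc finger genes lie between 0.66 and 2.83, and 5 of the 8 lower ones lie below -4.

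By family, 16 members were ZNF genes, 12 higher and 4 lower, and 5 were ZBTB genes, 4 higher and 1 lower. The ZFP genes were 1 higher and 2 lower, the ZSCAN genes 1 higher and 1 lower, and *KLF3* alone stood for the KLF genes. No ZKSCAN, ZFHX, ZEB or ZC3H gene was listed. Of the 655 protein-coding genes in the annotation whose names meet the rule, 26 were listed, the remaining member being annotated as a pseudogene. Those 26 were 3.97% of the 655. Listed members made up 2.91% of the ZNF genes in the annotation (515) and 11.9% of the ZBTB genes (42), while 4.75% of all protein-coding genes were listed.

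**Figure D2:**
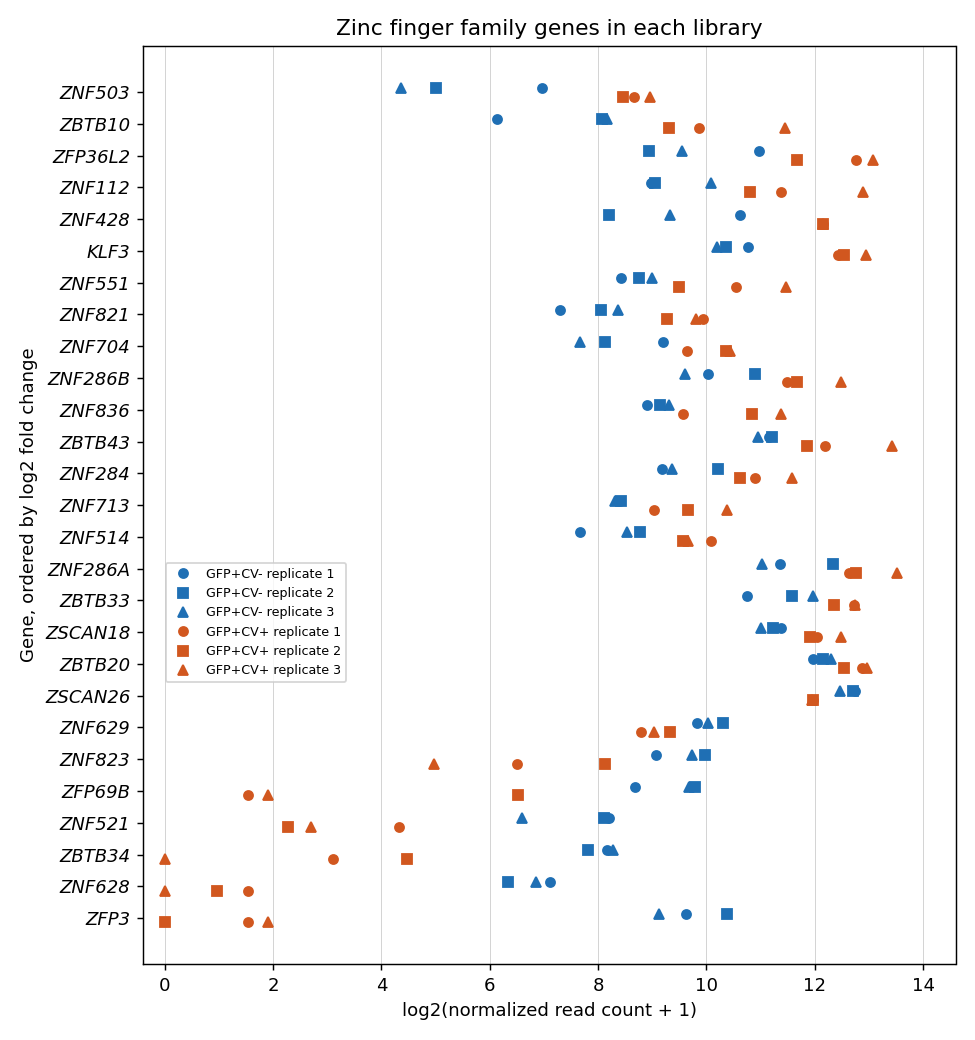
Log2 of the normalized read count plus 1 for each of the 27 genes (rows, by log2 fold change) in 3 proliferating (blue) and 3 dormant (orange) libraries, with a marker shape per replicate. No gene has overlapping groups, and the 3 dormant libraries of *ZNF428* lie on one point.

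*KLF3* encodes a repressor that binds CACCC boxes and works through the corepressor CtBP. It lies at chr4:38664197-38701517 on the plus strand of GRCh38. Its normalized read counts were 1746, 1315 and 1178 in proliferating and 5545, 5972 and 7877 in dormant libraries. The lowest dormant library was thus well above the highest proliferating one. Its log2 fold change of 2.19 (SE 0.24) had an adjusted p of 0.00321 in edgeR with Benjamini-Hochberg adjustment, the smallest among the 27 together with *ZFP3*. With any 1 library left out the value stayed between 2.03 and 2.37.

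*ZFP36L2*, the mRNA decay factor at chr2:43222402-43226606 on the minus strand, had 1997, 492 and 748 normalized counts in proliferating and 6966, 3246 and 8624 in dormant libraries. Proliferating replicate 1 was the highest of its group, and without it the log2 fold change of 2.54 (SE 0.59) became 3.34. The adjusted p was 0.00645 by edgeR with Benjamini-Hochberg adjustment. Of 26 genes of AU-rich mRNA binding and decay, 1 was listed: *ELAVL1*, which encodes an mRNA-stabilizing protein, was higher by 1.01 (SE 0.25). Of 23 textbook transcripts with AU-rich elements, 4 were listed. The listed share of all protein-coding genes was 4.75%. *CXCL1* and *CXCL8*, which encode chemokines, were higher by 1.55 (SE 0.36) and 1.05 (SE 0.28). *DUSP1*, a phosphatase of MAP kinases, and *PLAU*, the urokinase gene, were lower, with log2 fold changes of -2.31 (SE 0.56) and -0.68 (SE 0.17). Proliferating replicate 3 was the highest library for *DUSP1*, with 72290 normalized counts against 23490 and 14139 in replicates 1 and 2, and without it the log2 fold change was -1.35.

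*ZNF503* encodes a corepressor that lowers *GATA3* in mammary epithelium. Its gene is at chr10:75397830-75401764 on the minus strand. Its log2 fold change was 2.83 (SE 0.84), next to that of *ZBTB10* at 2.81 (SE 0.78), and their order turned with the library left out. Normalized counts were 125, 31.3 and 19.5 in proliferating and 403, 353 and 499 in dormant libraries, and relative to its mean the proliferating group spread more. Without proliferating replicate 1 the log2 fold change was 4.04.

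*ZBTB10*, known as a repressor of Sp factor genes, had 69.6, 267 and 284 normalized counts in proliferating and 930, 632 and 2794 in dormant libraries, a log2 fold change of 2.81 (SE 0.78). Dormant replicate 3 stood above the other two, and without it the value was 1.91. *ZNF704*, 102186 bases away on chromosome 8, was higher by 1.71 (SE 0.52), with 357 ± 205 (SD, n = 3) normalized counts in proliferating and 1166 ± 320 (SD, n = 3) in dormant cells.

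The other ZBTB genes that rose changed less. *ZBTB33* encodes Kaiso, which binds methylated DNA. It was at 2927 ± 1141 (SD, n = 3) in proliferating and 6291 ± 894 (SD, n = 3) in dormant cells, a log2 fold change of 1.10 (SE 0.31). *ZBTB20*, which encodes a repressor known from hippocampal and astrocyte development, had the smallest rise, 0.66 (SE 0.18), from 4547 ± 505 (SD, n = 3) to 7174 ± 1063 (SD, n = 3). Under median-of-ratios scaling the log2 fold changes of *ZBTB33* and *ZBTB20* were 0.49 and 0.06, with edgeR adjusted p-values of 0.176 and 0.790. Of 20 corepressor genes of BTB and CtBP complexes, 1 was listed, against 4.75% of all protein-coding genes. It was *TBL1XR1*, a subunit of the NCoR complex that was higher by 1.13 (SE 0.25).

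*ZBTB43* and *ZBTB34* are neighbours on the plus strand of chromosome 9, with 22429 bases between them, and they changed in opposite directions. Their promoters are printed with those of *ZFP3* and *ZNF628*, the genes with the deepest falls, as RefSeq gives them on GRCh38.p14, from 250 bases before to 50 after the start of the gene. Capitals mark the KLF box CACCC or its reverse complement GGGTG.
ZBTB43 promoter, chr9:126804790-126805089, plus strand: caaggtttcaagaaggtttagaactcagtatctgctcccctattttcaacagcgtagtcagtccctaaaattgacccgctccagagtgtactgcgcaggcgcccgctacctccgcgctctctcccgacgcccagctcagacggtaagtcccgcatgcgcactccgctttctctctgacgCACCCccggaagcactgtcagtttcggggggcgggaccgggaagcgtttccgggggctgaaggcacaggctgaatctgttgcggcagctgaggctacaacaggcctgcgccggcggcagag
ZBTB34 promoter, chr9:126860389-126860688, plus strand: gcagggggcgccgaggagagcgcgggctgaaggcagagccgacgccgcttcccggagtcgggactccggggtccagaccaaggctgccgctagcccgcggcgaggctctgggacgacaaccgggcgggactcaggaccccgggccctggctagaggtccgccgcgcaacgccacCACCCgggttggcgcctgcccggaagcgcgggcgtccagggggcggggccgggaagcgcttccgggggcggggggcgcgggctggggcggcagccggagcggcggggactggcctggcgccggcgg
ZFP3 promoter, chr17:5078217-5078516, plus strand: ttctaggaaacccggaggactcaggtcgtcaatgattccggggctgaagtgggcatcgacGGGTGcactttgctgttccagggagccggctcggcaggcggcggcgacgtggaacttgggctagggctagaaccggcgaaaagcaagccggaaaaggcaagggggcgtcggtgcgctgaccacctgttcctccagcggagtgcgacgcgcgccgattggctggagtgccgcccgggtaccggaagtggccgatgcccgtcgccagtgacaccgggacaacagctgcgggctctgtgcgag
ZNF628 promoter, chr19:55476367-55476666, plus strand: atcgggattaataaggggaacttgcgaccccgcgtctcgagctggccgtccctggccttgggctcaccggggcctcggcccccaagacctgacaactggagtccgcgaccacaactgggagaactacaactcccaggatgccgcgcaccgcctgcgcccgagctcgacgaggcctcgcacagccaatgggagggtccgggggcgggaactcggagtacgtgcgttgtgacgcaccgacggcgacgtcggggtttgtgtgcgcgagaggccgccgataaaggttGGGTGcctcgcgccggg
Each of these 4 promoters holds 1 such box.

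Promoters could be matched by symbol for 20 of the 27 genes. The letters CACCC, on either strand, stood in 14 of the 20, in 8 of 14 from higher and 6 of 6 from lower genes, while 58.9% of 27305 promoters and 60.4% of 551 promoters of genes that meet the name rule held them. The GC box GGGCGG, on either strand, stood in 12 of the 20 and in 64.6% of the 551, and some GC boxes may overlap a CACCC match. CCAAT, on either strand, was found in 6 of the 20 against 46.6% of the 551. The Kaiso site TCCTGCNA, on either strand, was found in 1 of the 20, that of *ZNF284*, against 5.08%. The median GC content was 61.7% for the higher genes, 67.7% for the lower genes and 61.7% for the 551. A match is a string of letters and no evidence that a protein binds there.

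*ZBTB43* had 2272, 2362 and 1980 normalized counts in proliferating and 4690, 3697 and 10979 in dormant libraries. Its log2 fold change was 1.55 (SE 0.40), and 0.93 without dormant replicate 3, its highest library. *ZBTB34* had 286, 224 and 310 in proliferating and 7.61, 21.1 and 0 in dormant libraries, a log2 fold change of -4.79 (SE 1.18) that became -6.03 without dormant replicate 2. For each *ZBTB34* count there were 6.38 to 10.5 *ZBTB43* counts in proliferating libraries. In dormant replicates 1 and 2 there were 617 and 175, and in dormant replicate 3 *ZBTB34* had no counts.

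**Figure D3:**
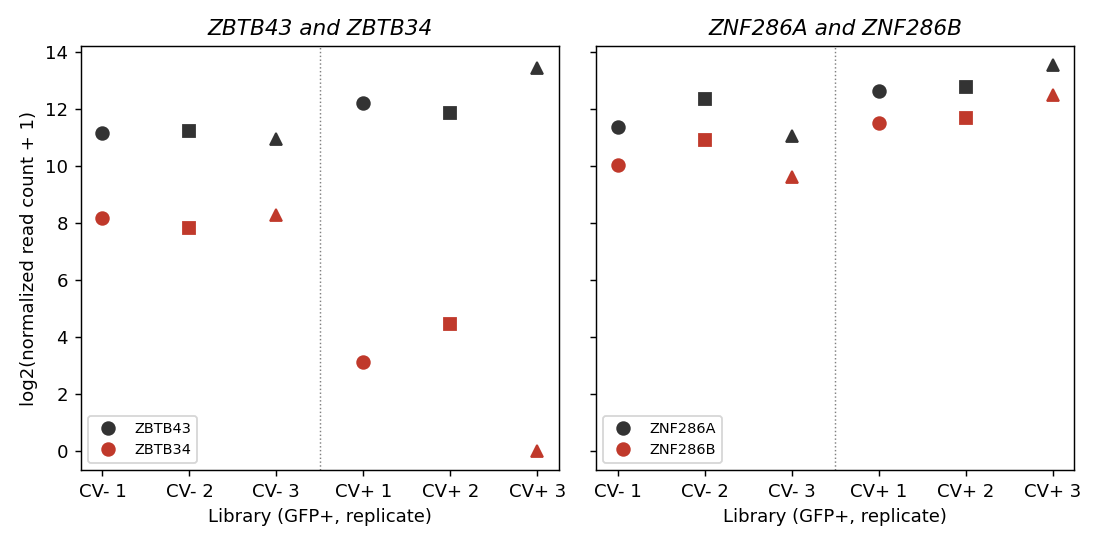
Log2 of the normalized read count plus 1 in each library (CV- 1 to 3 proliferating, CV+ 1 to 3 dormant, a dotted line between them) for the neighbours *ZBTB43* and *ZBTB34* (left) and the copies *ZNF286A* and *ZNF286B* (right). The neighbours move apart in dormant cells, to 0 for *ZBTB34* in replicate 3, and the copies move together.

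*ZNF286A*, at chr17:15699577-15720787 on the plus strand, and *ZNF286B*, at chr17:18661937-18681846 on the minus strand, are near-identical copies on chromosome 17, the second annotated as a transcribed unprocessed pseudogene. *ZNF286A* had 2637, 5160 and 2083 normalized counts in proliferating and 6356, 6930 and 11766 in dormant libraries. *ZNF286B* had 1042, 1905 and 782 in proliferating and 2874, 3250 and 5711 in dormant libraries. In both genes proliferating replicate 2 was the highest of its group and dormant replicate 3 the highest of all. The log2 fold changes were 1.34 (SE 0.39) and 1.67 (SE 0.42). Counts of *ZNF286B* were 0.369 to 0.395 of those of *ZNF286A* in proliferating and 0.452 to 0.485 in dormant libraries. Reads mapping to several places were counted, so the genes may share reads and their separate values are uncertain.

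The other higher ZNF genes were *ZNF112*, *ZNF428*, *ZNF551*, *ZNF821*, *ZNF836*, *ZNF284*, *ZNF713* and *ZNF514*, most of them KRAB zinc finger genes. Their log2 fold changes ran from 1.39 for *ZNF514* to 2.51 for *ZNF112*. *ZNF112* was at 706 ± 331 (SD, n = 3) in proliferating and 4015 ± 3150 (SD, n = 3) in dormant cells. Its dormant replicate 3 was 4.28 times as high as the lowest dormant library, and without that replicate the value was 1.65. *ZNF551* likewise had a log2 fold change of 1.98 (SE 0.53), and 1.37 without dormant replicate 3. *ZNF428* was even in dormant cells, at 4546 ± 13.7 (SD, n = 3), and uneven in proliferating cells, at 836 ± 660 (SD, n = 3). Its log2 fold change of 2.44 (SE 0.56) was 3.28 without proliferating replicate 1. *ZNF821* was at 251 ± 87.6 (SD, n = 3) in proliferating and 831 ± 189 (SD, n = 3) in dormant cells, a log2 fold change of 1.73 (SE 0.49). *ZNF836* rose by 1.65 (SE 0.48), with 560 ± 76.8 (SD, n = 3) in proliferating and 1755 ± 956 (SD, n = 3) in dormant cells. For *ZNF284* the means were 812 ± 333 (SD, n = 3) in proliferating and 2184 ± 784 (SD, n = 3) in dormant cells, and the log2 fold change was 1.43 (SE 0.41). In these 3 genes, as in the rest of the group, the dormant libraries lay above the proliferating ones. *ZNF713* had a log2 fold change of 1.42 (SE 0.48), with an edgeR adjusted p by Benjamini-Hochberg of 0.02, and of 0.0524 with the replicate number as a block. Without dormant replicate 3 its value was 1.0 with an edgeR adjusted p of 0.0600. It also lost the call without proliferating replicate 2 or 3, with edgeR adjusted p-values of 0.0521 and 0.0588. *ZNF514* lost the call without proliferating replicate 1 or dormant replicate 1, with edgeR adjusted p-values of 0.0533 and 0.0711. Of 19 genes of the KRAB corepressor and heterochromatin machinery, 1 was listed, against 4.75% of all protein-coding genes. It was *HDAC1*, a histone deacetylase gene, lower by a log2 fold change of -0.80 (SE 0.13).

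The SCAN genes split. *ZSCAN18*, at chr19:58083838-58118427 on the minus strand, was higher by 0.95 (SE 0.23), with 2387 ± 303 (SD, n = 3) normalized counts in proliferating and 4599 ± 991 (SD, n = 3) in dormant cells. Under median-of-ratios scaling it was at 0.35, with an edgeR adjusted p of 0.148. *ZSCAN26*, at chr6:28267058-28278224 on the plus strand, had a log2 fold change of -0.68 (SE 0.16), from 6375 ± 652 (SD, n = 3) to 3977 ± 37.7 (SD, n = 3), the smallest fall among the 27. It was also the lower gene with the highest level.

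*ZFP3*, a gene of classical DNA-binding fingers at chr17:5078467-5096374 on the plus strand, fell most. It had 790, 1340 and 559 normalized counts in proliferating and 1.90, 0 and 2.76 in dormant libraries. The dormant libraries held 4 counts together and the proliferating ones 3021, a ratio of 602 after scaling, with an exact 95% interval of 235 to 2209 that covers counting error only, since amplified reads are not independent molecules. The fitted log2 fold change was -9.15 (SE 1.02), and -8.54 without dormant replicate 2. *ZNF628*, at chr19:55476617-55484487 on the plus strand, had 137, 79.8 and 115 in proliferating and 1.90, 0.960 and 0 in dormant libraries. With 3 counts against 405, the scaled ratio was 108, with an exact 95% interval of 36.5 to 524. Its fitted log2 fold change was -6.60 (SE 0.97), and -7.38 without dormant replicate 1. In both genes every dormant library was at 3 counts or fewer, while each proliferating library held at least 74. Among whole counts from 1 to 50, 64.2% to 87.9% were even in each library. If counts came in pairs, both exact intervals would be too narrow even for counting error, which was not tested.

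*ZFP69B*, a KRAB zinc finger gene, had a log2 fold change of -4.45 (SE 1.44). It was at 706 ± 259 (SD, n = 3) in proliferating cells, and of the dormant libraries replicate 2 alone held more than 2 counts, with 91.2 normalized counts. Without that library the log2 fold change was -8.20, and with the replicate block it was -6.19. *ZNF521*, which encodes a cofactor known from blood stem and progenitor cells, was at 222 ± 109 (SD, n = 3) in proliferating and 9.46 ± 8.32 (SD, n = 3) in dormant cells. Its log2 fold change was -4.52 (SE 0.93), and -5.54 without dormant replicate 1. *ZNF823*, another KRAB gene, was at 798 ± 239 (SD, n = 3) and 134 ± 130 (SD, n = 3), a log2 fold change of -2.57 (SE 0.83), or -3.71 without dormant replicate 2. Its edgeR adjusted p rose from 0.0172 to 0.0514 without proliferating replicate 2 and to 0.0547 without dormant replicate 1. *ZNF629* had the largest adjusted p of the 27, 0.0272 in edgeR with Benjamini-Hochberg adjustment. It was at 1072 ± 182 (SD, n = 3) and 536 ± 102 (SD, n = 3), a log2 fold change of -1.0 (SE 0.36). The edgeR adjusted p was 0.0523 with the replicate block. It was 0.102, 0.0641 and 0.0796 without proliferating replicates 2 and 3 and dormant replicate 1.

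**Figure D4:**
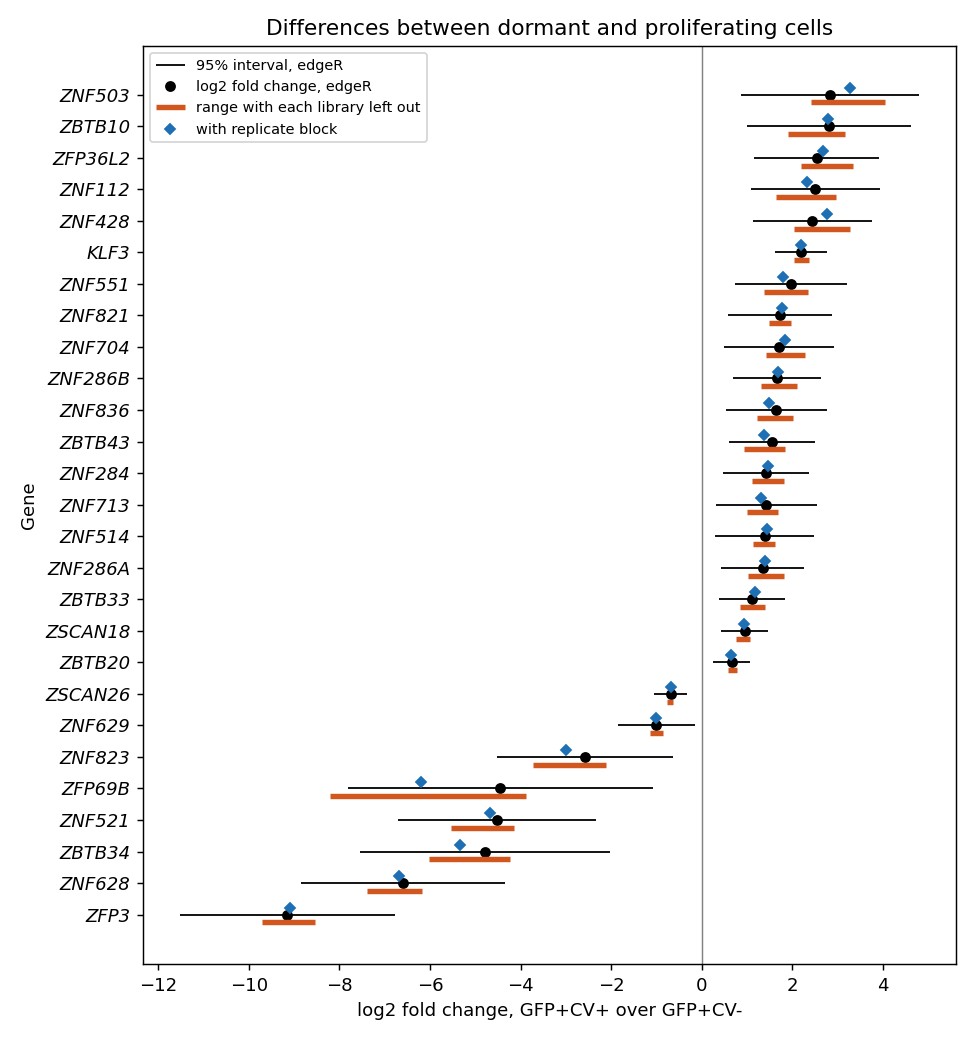
Log2 fold change of dormant over proliferating cells for the 27 genes, with the 95% interval of the edgeR fit (black), the value with the replicate block (blue diamonds) and the range with each of the 6 libraries left out in turn (orange bars). No range crosses 0, and that of *ZFP69B* is the widest, from -8.20 to -3.89.

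The libraries varied unevenly. Among the 19 higher genes, dormant replicate 3 was the highest dormant library for 16, or 84.2%, and dormant replicate 1 for 3. Over the 576 listed genes that were higher, the share of replicate 3 was 65.6%. The median coefficient of variation of the 19 was 35.6% in dormant and 39.0% in proliferating cells, against 31.4% and 28.8% for the listed higher genes. For the 8 lower genes it was 94.3% in dormant and 28.0% in proliferating cells, against 16.1% and 15.1% for the listed lower genes. These sets were not matched by level. The 5 lower genes that fell by more than 4 on the log2 scale had dormant means of 32.0 normalized counts or less. All 19 higher genes were higher, and all 8 lower genes lower, in each of the 3 same-numbered pairs. This follows from the gap between the groups and adds nothing to it.

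The genes were spread over the genome. Of the 27, 8 lay on chromosome 19, 6 higher and 2 lower, which was 29.6% against 40.9% of the 655 annotated genes that meet the rule. Among the higher genes 18 of 19 overlapped another annotated gene and 11 a protein-coding one, while 3 and 1 of the 8 lower genes did. Over all listed genes matched to the annotation, 77.7% of the higher and 66.9% of the lower genes overlapped another, and 40.8% and 38.3% a protein-coding one. *ZNF428* overlaps *SRRM5* on the opposite strand, which was higher by 2.01 (SE 0.58), or by 2.65 without proliferating replicate 1. *ZNF821* overlaps *AC010653.2* on the opposite strand, which was higher by 1.97 (SE 0.61). No strand setting of the counting is given in the sources used here, so reads of such pairs may not be told apart. *ZNF112* overlaps *AC245748.1* on the same strand, which was higher by 3.13 (SE 0.97), or by 1.69 without dormant replicate 3. Reads of that pair may be shared too. No other listed gene lay within 200 kb of *ZFP3*. *IL11*, an interleukin gene 106154 bases from *ZNF628*, had 104, 112 and 16.3 normalized counts in proliferating and 1.90, 0 and 0 in dormant libraries. Other listed neighbours within 200 kb went with or against a zinc finger gene. Beside *ZFP69B*, which was lower, *RIMS3* was at -9.71 and *COL9A2* at 2.28 on the log2 fold change scale, and beside *ZNF503*, which was higher, *VDAC2* was at -0.51.

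Beyond the named families, 9 of 77 other DNA-binding zinc finger regulators on a textbook list were in the table, 7 higher and 2 lower. Of all protein-coding genes 4.75% were listed, and 49.6% of listed genes were higher, or 66.9% of those at the level of the 27. *REST*, the repressor of neuronal genes, was higher by 1.57 (SE 0.29), *YY1*, a widely expressed regulator, by 1.14 (SE 0.28), and *EGR1*, an immediate early gene, by 1.51 (SE 0.34). *SP4*, *PLAGL2*, *PATZ1* and *POGZ* were higher by between 0.87 and 1.72. *GTF3A*, which encodes a factor of small ribosomal RNA transcription, was lower by a log2 fold change of -0.55 (SE 0.14). *TSHZ1*, a developmental regulator, had 180, 18.3 and 119 normalized counts in proliferating and 0, 1.92 and 0 in dormant libraries.

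Some markers of other cells were listed, and these were all higher in dormant cells. Among all protein-coding genes 4.75% were listed. Of 7 fibroblast markers 4 were listed, all higher in dormant cells, with a summed level of 41480 to 66910 normalized counts in dormant and 4092 to 7482 in proliferating libraries. Of 8 astrocyte markers 2 were listed and higher, with sums of 3518 to 6961 against 577 to 1339. *PDGFRB* was the 1 listed of 6 pericyte and smooth muscle markers, with 2556 to 4755 against 277 to 466. No marker of microglia and macrophages (9), endothelium (7), oligodendrocytes (7) or neurons (6) was listed. *KRT8* and *KRT18*, the 2 listed of 7 markers of the line, summed to 118900 to 155800 in dormant and 211400 to 243200 in proliferating libraries. Of 14 proliferation genes, *MCM3* alone was listed, at 18160 to 20270 in dormant and 23890 to 27310 in proliferating libraries. Their part in the differences of the zinc finger genes was not tested.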

How the data were processed

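Messenger RNA of both sorted populations was measured in 6 libraries made by the Smart-seq2 protocol. The authors trimmed reads with Cutadapt and aligned them with STAR (2.7 in the submitters' processing notes) to joined human GRCh38.p12 (GENCODE release 31) and mouse GRCm38.p6 assemblies. They counted reads with RSubread, multi-mapping reads included, and discarded mouse reads. The deposited estimated counts are not normalized, and between 43.2% and 49.6% of them per library are not whole. The deposited normalized signal is the count rounded to whole numbers over a DESeq2 size factor for each library, 0.724 to 1.38. Recomputing it gave a largest difference of 5.0e-05. Columns of the authors' own comparison (mean level, fold changes, errors, test statistics and p-values) were not used.

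Estimated counts were rounded and tested with edgeR 4.0.16 in R 4.3.3 (glmQLFit, glmQLFTest, two-sided) on all 1161 listed genes, with the authors' size factors, the population as the only term and no filter on low counts. A mean count of at least 50 was reached by all 27 members. Intervals are 95% intervals of this fit. The common dispersion was 0.182. With 3 libraries in each population, the smallest two-sided p of an exact permutation test is 0.1. Alternatives were a replicate block, DESeq2 1.42.0, limma 3.58.1 on log2 of the normalized count plus 1 or 5, other scalings, a low-count filter, leaving out each library and adjustment over all protein-coding genes. Same-numbered libraries came from one pool of mice, which pairs them. The correlations of their deviations from the group means were 0.057, -0.018 and 0.001 over the listed genes. Simulated counts were also made for this comparison, with 1161 genes, 200 of them changed and the rest unchanged. On these counts edgeR recovered 62% of genes changed by 1.5 and 100% of those changed by 3 on the log2 scale. Of its calls there, 2.99% were false. The listed genes, by contrast, had all been called different by the authors beforehand. The share of false calls among the listed genes was not tested.

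All genes meeting the name rule are named. Values in every library are given for the 3 largest changes in each direction, the 3 smallest p-values, the only KLF gene and the near-identical copies, and also for *ZBTB43*, *TSHZ1*, *IL11* and, in proliferating cells, *DUSP1*, chosen after their values were seen. Members, lists and tests were chosen with earlier results of these data known. GENCODE release 44 (GRCh38) gave the positions, found by Ensembl identifier for 1157 listed genes, among them all 27 members. Tables and figures used Python 3.11.15, pandas 2.3.3, scipy 1.17.1 and matplotlib 3.10.9.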

Additional observations from a re-analysis of the deposited data

How the results depend on the processing

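All 27 genes kept their direction under every alternative run. All 27 also stayed past the threshold with DESeq2, limma at either pseudocount, scaling by the trimmed mean of M-values (TMM) and the low-count filter. Of the 1161 listed genes, 1161 passed with DESeq2, 1152 and 1150 with limma at pseudocounts 1 and 5, and 1155 with TMM. With the low-count filter, which left fewer genes to test, 1072 passed. The authors had called every listed gene on these libraries with DESeq2 size factors, so these passes are not independent evidence. TMM was computed on listed genes only. With the replicate block 25 of the 27 stayed past the threshold (18 higher and 7 lower, median 1.39). Scaled by library totals of the listed genes, *ZSCAN26* and *ZNF629* lost the call (25 kept), and 372 listed genes were called lower instead of 581. Median-of-ratios scaling over the listed genes moved the median of all listed genes from -0.33 to -0.91. Under it 9 genes instead of 19 were called higher and 8 lower, 346 listed genes were called higher instead of 576, and *ZBTB20* came to 0.06. By this scaling the share of higher calls was 37.2%, by totals 60.8% and in the fit as reported 49.8%. Both alternatives were scaled on genes listed as different, so they cannot show which share is right. With edgeR p-values adjusted over all protein-coding genes, 0 of the 27 were called in either direction. By this adjustment 3 listed genes were called, 3 higher and 0 lower. With the replicate block as well, a choice made after seeing the data, 0 of the 27 and 4 listed genes were, 4 higher and 0 lower. DESeq2 p-values were not adjusted in this way. Over the listed genes alone, DESeq2 adjusted p-values of the 27 ran from 1.7e-21 for *ZFP3* to 0.00148 for *ZNF823*. Leaving out each library gave 18 to 19 genes called higher, 6 to 8 called lower, a median of 1.04 to 1.60 and 1089 to 1135 listed genes called, 534 to 566 higher and 555 to 578 lower. Among the 27, the replicate block changed the calls of *ZNF713* and *ZNF629* and no other, and it took listed genes called from 1157 to 1097, 544 higher and 553 lower. Other causes of these shifts were not tested. With 3 libraries a group and at most 3 counts in a dormant library, the sizes of the falls of *ZFP3* and *ZNF628* are not well fixed.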
